A study of Homo sapiens with 2 samples.

Results

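The tripartite motif (TRIM) genes encode a large family of proteins, most of them ubiquitin ligases, and their mRNA levels were compared here between SUM-159 cells labelled PD-L1L2-SE deficient and SUM-159 cells labelled sgVector. Members were taken as the protein-coding rows of the deposited expression table whose gene symbol, looked up from the Ensembl identifier, starts with TRIM and a digit. This gave 78 genes of 19853 protein-coding rows and 60880 rows in all. SUM-159 is an established line from a human breast cancer of the triple-negative kind, and the study concerns a super-enhancer named for PD-L1 and PD-L2. There was 1 library of deficient cells and 1 of sgVector cells, both of polyA RNA. The sources used here do not say whether the deficient cells were a single clone or a pool, nor how many cultures were sampled.

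A TRIM protein usually carries a RING domain that recruits a ubiquitin-conjugating enzyme (E2), B-box zinc fingers and a coiled coil through which the proteins pair, followed by a C-terminal domain that selects the target. Several members restrict viruses or tune the sensing of viral nucleic acid, and a number of those are induced by interferon. Others silence chromatin, bind microtubules or act in muscle and neurons.

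The libraries held 16381546 reads on genes in deficient cells and 16206675 in sgVector cells. CD274, which encodes PD-L1, had 47 reads against 477, and PDCD1LG2, which encodes PD-L2, had 46 against 204, both lower in the library labelled deficient. The mesenchymal markers VIM, CD44, FN1, AXL and CAV1 lay between 53.2 and 389.7 RPKM in deficient cells and between 49.6 and 746.2 RPKM in sgVector cells. ESR1, PGR, EPCAM and CDH1 together had 7 reads against 3. Of the leukocyte markers PTPRC, CD3E, CD14, NKG7 and LYZ, CD14 alone passed 1 RPKM, with 476 reads against 337, and these genes held 477 against 343 in all. CDH5 and VWF, markers of endothelium, had 4 reads against 7. The part of any other cell type in the results was not tested. Values are RPKM, reads per kilobase of gene and 1000000 reads on genes, which can be compared between genes. Each group had 1 library, so the differences are without a replicate check and no test across samples was possible. The 95% Clopper-Pearson intervals given cover counting error only. These are bulk values, in which fewer cells expressing a gene and less RNA per cell cannot be told apart.

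The family as a whole stood at nearly the same level in both libraries. Summed over the 78 genes, the levels came to 324 RPKM in deficient cells and 332 RPKM in sgVector cells. A mean of at least 1 RPKM over both libraries, a floor on level and not on read depth, was reached by 37 members. Their log2 ratios, deficient over sgVector with 0.1 RPKM added to each value, ran from -0.77 to 1.07 with a median of 0.01, beside a median of -0.03 over the 10576 protein-coding genes past the same floor. Leaving out mitochondrial genes took the family median just below 0, to -0.0085. Of the 37, 19 were above 0 and 18 below.

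A 2-fold difference was reached by 1 of the 37, the antiviral gene TRIM22, which was higher in deficient cells, and 0 were lower by that much. Over all protein-coding genes past the floor the shares were 2.10% higher and 2.07% lower, so the family held about the background share. At 1.5-fold, 3 members were higher, TRIM22, TRIM52 and TRIM26, against a background of 6.92%. TRIM45 and TRIM39, 2 members, were lower at that threshold, against a background of 8.67%. The counting interval lay wholly above no change for 10 of the 37 members (background 30.0%) and wholly below it for 12 (background 35.4%). For the other 15 members it spanned no change. These interval counts hold for scaling by reads on genes and were not taken under other scalings. Trimmed mean of M values (TMM) scaling shifts the log2 of read shares by 0.076. On the log2 scale the interval of TRIM25 began at -0.074 and that of TRIM28 ended at -0.019. Such a shift can therefore move members between these classes.

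**Figure D1:**
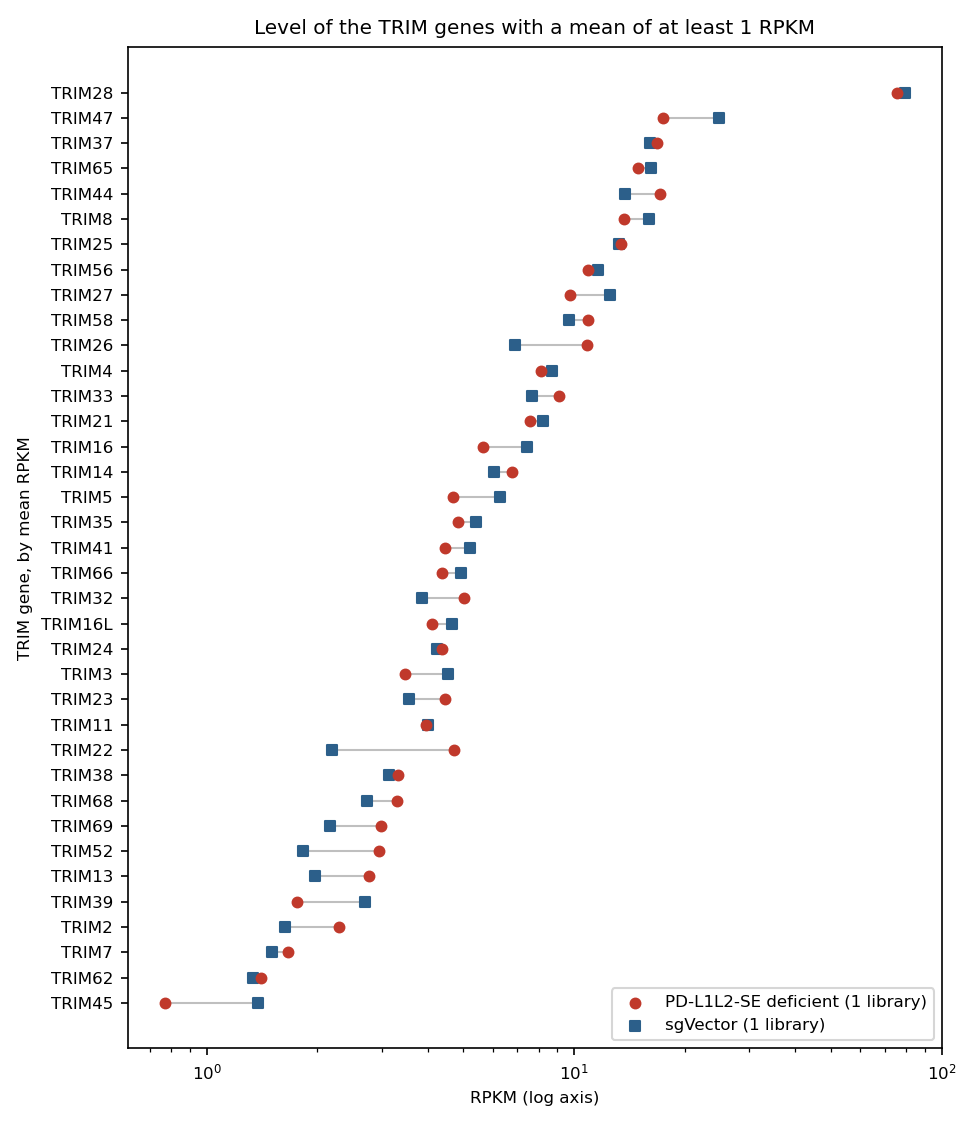
RPKM on a log axis of the 37 TRIM genes past the floor, with red circles for the deficient library and blue squares for the sgVector library, ordered by mean level. TRIM28 stands alone at the top, and the widest gap with the deficient library ahead is that of TRIM22.

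**Figure D2:**
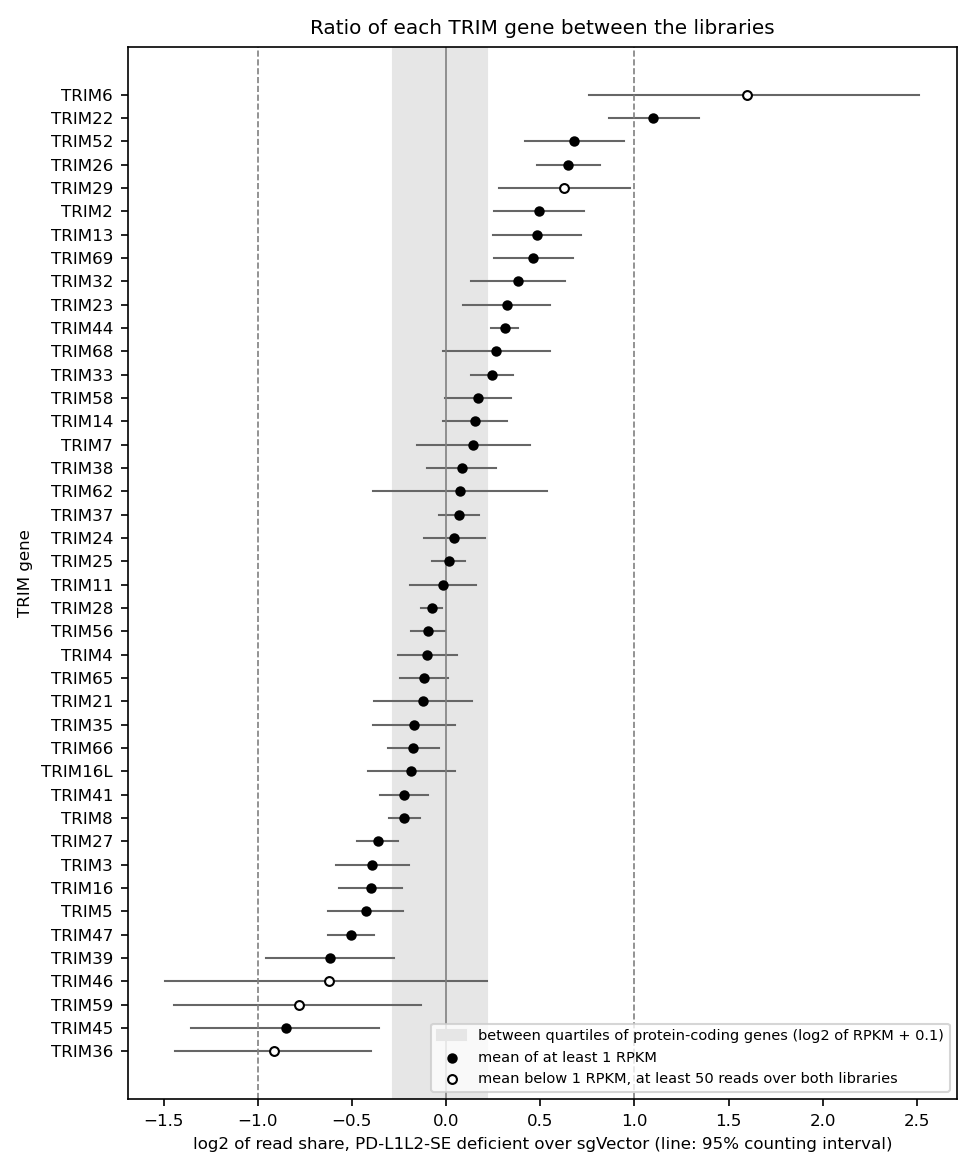
Log2 ratio of read shares, deficient over sgVector, for these 37 genes and the 5 members below the floor with at least 50 reads over both libraries (open circles), with lines for the 95% counting intervals and dashed lines at 2-fold. The grey band runs between the quartiles of protein-coding genes, -0.28 and 0.22, and TRIM22 is the only filled circle past 2-fold.

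The TRIM genes of 11p15.4 include a tight group of 4, in the order TRIM6, TRIM34, TRIM5 and TRIM22 by their starts, which are close relatives with a SPRY domain at the C-terminal end. In hg19 coordinates, from the deposited table, TRIM6 (ENSG00000121236) spans chr11:5617339-5634188 and TRIM34 (ENSG00000258659) chr11:5640994-5665628, both on the plus strand. TRIM5 (ENSG00000132256) spans chr11:5684787-5959849 on the minus strand, and TRIM22 (ENSG00000132274) lies within that span at chr11:5710919-5758319 on the plus strand. No exon base of TRIM22 overlapped an exon of TRIM5.

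TRIM22, an interferon-induced gene whose product restricts HIV and other viruses, had 4.71 RPKM from 464 reads in deficient cells, against 2.19 RPKM from 214 reads in sgVector cells. It was 2.15-fold higher (95% counting interval 1.82 to 2.53), a log2 ratio of 1.07. TRIM5, whose product binds incoming retroviral capsids, went the other way, at 4.68 RPKM from 368 reads in deficient cells against 6.28 RPKM from 489 reads in sgVector cells. That is 1.34-fold lower (1.17 to 1.54) with a log2 ratio of -0.42. The pair thus stood at almost equal levels in deficient cells, whereas in sgVector cells TRIM5 was well above TRIM22. The call on TRIM22 is a narrow one, since its log2 ratio was 0.84 with 1 RPKM added and 0.98 after correction for GC content and length.

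TRIM6, which makes unanchored ubiquitin chains in interferon signalling, was scarce, at 0.758 RPKM from 49 reads in deficient cells against 0.250 RPKM from 16 reads in sgVector cells. Its read share was 3.03-fold higher, with a wide interval of 1.69 to 5.71, and its mean lay below the floor of 1 RPKM. TRIM34 had 4 reads in deficient cells and 2 in sgVector cells. Both genes share exons with the annotated readthrough gene TRIM6-TRIM34, which covers 83.0% of the exon bases of TRIM34 and 29.3% of those of TRIM6. All exon bases of the readthrough gene overlap those of its 2 parts, and it is listed at 0 reads in both libraries. The sources used here do not say how reads on shared exons were assigned, so the levels of TRIM34 and TRIM6 are uncertain. If such reads were left out of the counts, both levels are too low, that of TRIM34 above all. Of TRIM22, 10.7% of the exon bases overlap the olfactory receptor gene OR56B1, which had 1 read in deficient cells and 0 in sgVector cells. Of TRIM5, 7.95% overlap another gene on the same strand (ENSG00000239920) that had 9 reads against 16. If reads on shared exon bases were left out, these small counts do not measure the overlap. The levels of TRIM22 and TRIM5 would then be somewhat too low as well.

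The remaining members on 11p15.4 lie apart from this group and showed no ratio of 1.5-fold. TRIM21, the cytosolic antibody receptor, had 7.56 RPKM in deficient cells and 8.22 RPKM in sgVector cells, with an interval from 1.30-fold lower to 1.10-fold higher. TRIM68, known as a coactivator of the androgen receptor, had 3.29 RPKM against 2.74 RPKM, and its interval also spanned no change. TRIM3, a member with NHL repeats, had 3.47 RPKM from 384 reads against 4.55 RPKM from 498 reads and was 1.31-fold lower (1.15 to 1.501). TRIM66, a chromatin factor, had 4.37 RPKM from 841 reads against 4.93 RPKM from 939 reads, 1.13-fold lower (1.03 to 1.24). TRIM3, TRIM66 and TRIM5 were thus modestly lower in deficient cells, on the same chromosome arm as TRIM22. For TRIM66 this depended on the scaling, since its log2 ratio of -0.17 was -0.10 after TMM scaling. Its interval ended at a log2 of -0.039, closer to no change than the TMM shift of 0.076.

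Within 1 Mb of the span of TRIM6, TRIM34, TRIM5 and TRIM22, 20 other protein-coding genes passed the floor. Their median log2 ratio was -0.12, with 7 above 0. Past 2-fold, 4 were higher and 0 lower, beside 2.10% and 2.07% of all protein-coding genes past the floor. The 4 were the olfactory receptor genes OR52E2, OR52A1 and OR51E2 and the globin gene HBB, at log2 ratios of 3.37, 2.60, 1.73 and 3.05. Their reads in that order were 67 against 5, 705 against 102, 108 against 29 and 49 against 4. In sgVector cells they had 0.315, 0.643, 0.616 and 0.189 RPKM, so their means passed the floor only through the deficient library. The count of 4 is thus shaped in part by the floor. Measured between lower coordinates, these 4 genes lie from -1009.5 to -464.2 kb of TRIM22. TRIM6 lies at -93.6 kb, and the expressed genes between it and those 4, HBG2, OR51B4 and OR51B5, had log2 ratios of -0.35, -0.15 and -0.93. The counting intervals of HBG2 and OR51B4, with 25 reads against 32 and 30 against 33, spanned no change, and that of OR51B5, with 70 against 138, did not.

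**Figure D3:**
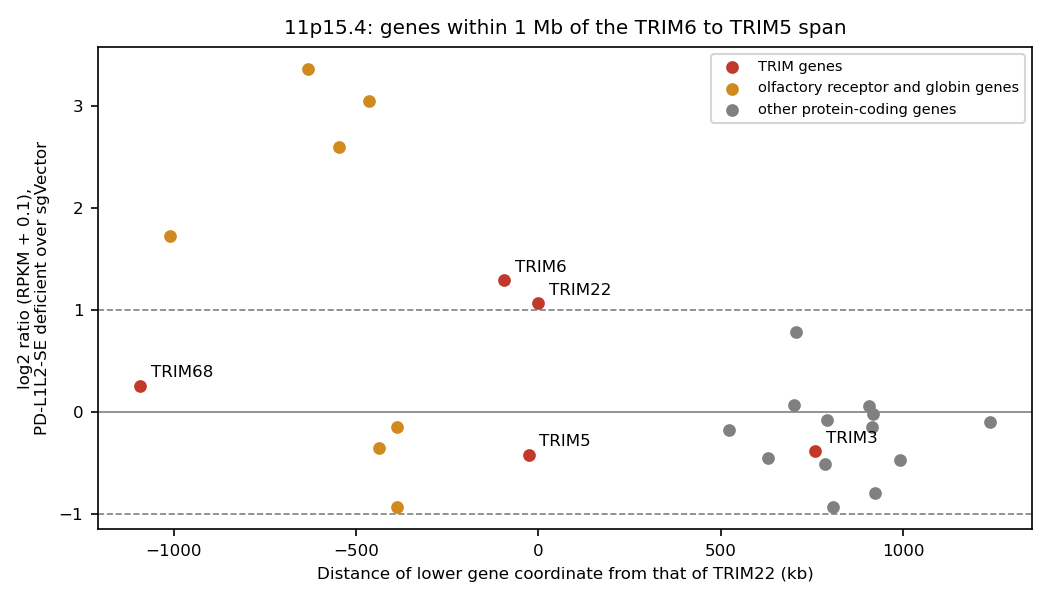
Log2 ratio (RPKM + 0.1), deficient over sgVector, of protein-coding genes past the floor near the 11p15.4 group, and of TRIM6, against the distance in kb between the gene's lower coordinate and that of TRIM22. TRIM22 (1.07) and TRIM6 (1.29) lie above the dashed 2-fold line, while TRIM5 (-0.42), beside TRIM22, and TRIM3 (-0.38) lie below 0.

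Members with antiviral roles or roles in innate sensing differed in direction. The list of 12 was TRIM5, TRIM6, TRIM14, TRIM21, TRIM22, TRIM25, TRIM26, TRIM34, TRIM38, TRIM56, TRIM65 and TRIM69. Of the 10 past the floor, 6 were above 0 and 4 below, 1 was at least 2-fold higher and 0 lower. Their median log2 ratio was 0.05, beside -0.03 over all protein-coding genes. Of all protein-coding genes past the floor 2.10% were at least 2-fold higher and 2.07% lower, shares that also apply to the lists below. The signs of TRIM21, TRIM25, TRIM38 and TRIM65 changed under at least 1 scaling or correction.

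Among the members of this list past the floor, TRIM22 was followed by TRIM26, a gene of the MHC region known to act on interferon induction. It had 10.8 RPKM from 775 reads in deficient cells, against 6.89 RPKM from 489 reads in sgVector cells. That is 1.57-fold higher (1.40 to 1.76), and none of its exon bases overlapped another gene. TRIM69, which restricts vesicular stomatitis virus, had 2.99 RPKM from 454 reads against 2.17 RPKM from 326 reads and was 1.38-fold higher (1.19 to 1.59). TRIM14, an adaptor at the mitochondrial protein MAVS, had 6.76 RPKM against 6.07 RPKM, with an interval from 0.991-fold to 1.25-fold.

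TRIM25, which ubiquitinates the RNA sensor RIG-I, hardly differed, at 13.4 RPKM from 2082 reads in deficient cells against 13.2 RPKM from 2039 reads in sgVector cells. Its depth leaves a narrow interval, 0.9499-fold to 1.07-fold. TRIM38, a negative regulator of inflammatory signalling, had 3.31 RPKM against 3.13 RPKM, an interval of 0.934-fold to 1.203-fold. TRIM56, which acts in antiviral responses, had 10.9 RPKM against 11.6 RPKM and was 1.07-fold lower (1.004 to 1.14). Its log2 ratio of -0.09 was -0.02 after TMM scaling. TRIM65, which activates the RNA sensor MDA5, had 14.9 RPKM against 16.2 RPKM, with an interval from 1.19-fold lower to 1.01-fold higher. The abundant ligases of the RNA-sensing pathway were thus at like levels in both libraries, to within the intervals given.

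The sensors that these ligases act on were among the genes with larger ratios. Of 11 genes listed for the RIG-I pathway, all past the floor, 6 were above 0 and 5 below, with a median of 0.02. In this list 1 was at least 2-fold higher and 0 lower, beside 2.10% and 2.07% of all protein-coding genes past the floor. ZC3HAV1, an antiviral zinc finger protein that binds TRIM25, had 43.9 RPKM in deficient cells against 13.6 RPKM in sgVector cells and was 3.24-fold higher (3.07 to 3.42). RIGI, which encodes RIG-I, had 13.3 RPKM against 6.69 RPKM, 1.98-fold higher (1.77 to 2.22). IFIH1, which encodes MDA5, had 15.6 RPKM against 7.997 RPKM, 1.95-fold higher (1.77 to 2.14). The lowest 3 of the list were IRF3, IRF7 and TBK1, at log2 ratios of -0.53, -0.34 and -0.28.

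Interferon acts on many genes through the interferon-stimulated response element, so its core was looked for in promoter windows from RefSeq (GRCh38.p14), which cover 250 bases before and 50 after a gene's start. Windows were matched for 62 of the 78 members by symbol. TRIM22 is not among them. The letters GAAA, any 2 bases and GAAA again, searched on both strands, were present for 10 of the 62 members (16.1%), against 4.38% of the 27305 genes with windows. The 10 were TRIM2, TRIM5, TRIM14, TRIM16, TRIM21, TRIM26, TRIM34, TRIM44, TRIM64C and TRIM69. The letters TTCNNNGAA, the core of the element bound by STAT factors, were present for 12 of the 62 (19.4%), against 9.38%, and these included several near-identical genes. A gene with several windows counted as positive if any held the letters. The genes behind both background shares were not filtered by gene type, whereas the members are all protein-coding.

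The 250 bases before the start are shown for the 5 antiviral members whose response element core lies there, 5′ to 3′ on the strand of the gene, with the core in capitals. The regions are chr11:5685075-5685324 (minus strand) for TRIM5, chr11:5624751-5625000 (plus) for TRIM34, chr6:30213407-30213656 (minus) for TRIM26, chr15:44736278-44736527 (plus) for TRIM69 and chr9:98119223-98119472 (minus) for TRIM14.
TRIM5: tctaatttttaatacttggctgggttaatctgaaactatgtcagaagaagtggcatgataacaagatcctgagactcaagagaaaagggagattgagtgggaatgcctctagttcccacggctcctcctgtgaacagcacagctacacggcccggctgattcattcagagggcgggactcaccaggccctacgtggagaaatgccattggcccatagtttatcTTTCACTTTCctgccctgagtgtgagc
TRIM34: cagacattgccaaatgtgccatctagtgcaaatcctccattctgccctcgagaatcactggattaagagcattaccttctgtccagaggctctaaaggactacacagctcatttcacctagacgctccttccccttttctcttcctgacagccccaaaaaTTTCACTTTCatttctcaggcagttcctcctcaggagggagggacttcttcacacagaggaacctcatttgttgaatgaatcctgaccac
TRIM26: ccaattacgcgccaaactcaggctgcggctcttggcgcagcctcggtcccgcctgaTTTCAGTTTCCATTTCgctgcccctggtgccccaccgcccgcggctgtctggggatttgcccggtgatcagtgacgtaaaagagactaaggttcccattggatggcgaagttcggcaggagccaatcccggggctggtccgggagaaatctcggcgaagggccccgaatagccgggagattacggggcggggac
TRIM69: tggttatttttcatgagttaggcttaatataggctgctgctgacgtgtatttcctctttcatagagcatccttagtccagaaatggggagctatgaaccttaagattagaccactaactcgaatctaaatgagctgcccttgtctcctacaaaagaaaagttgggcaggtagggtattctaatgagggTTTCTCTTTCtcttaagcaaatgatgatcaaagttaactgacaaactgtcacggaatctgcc
TRIM14: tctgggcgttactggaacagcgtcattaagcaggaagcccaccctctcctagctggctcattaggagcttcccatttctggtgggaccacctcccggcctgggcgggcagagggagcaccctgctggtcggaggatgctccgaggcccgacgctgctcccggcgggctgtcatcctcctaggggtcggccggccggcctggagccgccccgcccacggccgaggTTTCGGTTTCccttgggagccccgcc
All 5 cores are shown in the reverse orientation. TRIM26 holds 2 overlapping matches, and the 10 bases of the TRIM5 match, from -27 to -18, are the same letters as those of TRIM34.

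Of the 26 members past the floor with a window, 8 had the response element core, 5 of them above 0 and 3 below, with a median log2 ratio of 0.23. The 18 without it had a median of 0.07. Members past the floor with no window are in neither median. Among them are TRIM22 at 1.07 and TRIM45 at -0.77, the highest and lowest of the 37. With the core before their starts, TRIM2, TRIM26, TRIM44 and TRIM69 were higher in deficient cells and TRIM5 and TRIM16 lower. TRIM14, with the core also before its start, had an interval that spanned no change. TRIM21, with 2 overlapping cores just after its start, showed an interval that spanned no change.

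Of the 4 members of the TIF1 chromatin group (TRIM24, TRIM28, TRIM33 and TRIM66), 2 were above 0 and 2 below, with none past 1.5-fold. TRIM28, the corepressor that KRAB zinc finger proteins recruit to silence repeats, was the most abundant TRIM gene, above 96.6% of the protein-coding genes past the floor. It had 75.5 RPKM from 4990 reads in deficient cells and 79.6 RPKM from 5202 reads in sgVector cells, 1.05-fold lower (1.01 to 1.10). That difference depended on the scaling, with log2 ratios of 0.00024 after TMM scaling and 0.17 after the GC and length correction, against -0.08. TRIM24, a nuclear receptor cofactor and ligase of p53, had 4.36 RPKM against 4.23 RPKM, with an interval of 0.924-fold to 1.15-fold. TRIM33, a cofactor and ligase in SMAD signalling, had 9.10 RPKM from 1428 reads against 7.69 RPKM from 1193 reads, 1.18-fold higher (1.10 to 1.28). Its log2 ratio of 0.24 was 0.04 after the GC and length correction. Among 12 partners of TRIM28 in silencing, 0 reached 2-fold and the median log2 ratio was -0.00059. MPHOSPH8, a subunit of the HUSH complex, stood at 0.86, CHD3 at 0.43 and CBX5, which encodes HP1 alpha, at 0.38. ATF7IP, MORC2 and PPHLN1 stood at -0.44, -0.38 and -0.29. MPHOSPH8 lies on chromosome 13.

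Members without a RING domain are less clearly ligases. TRIM44, which has a zinc finger of the kind found in deubiquitinases, had 17.1 RPKM from 3663 reads in deficient cells against 13.8 RPKM from 2922 reads in sgVector cells. It was 1.24-fold higher (1.18 to 1.30), with a log2 ratio of 0.31 that was 0.16 after the GC and length correction. TRIM16, which acts in autophagy of damaged endomembranes, had 5.64 RPKM against 7.44 RPKM and was 1.32-fold lower (1.18 to 1.48). TRIM16L had 4.10 RPKM against 4.66 RPKM. These 2 genes are near copies: 77.0% of the 31-base words in the longest TRIM16 transcript also occur in transcripts of other genes, above all TRIM16L, and 62.6% of those of TRIM16L, so reads may be split between them. TRIM29, a regulator in keratinocytes and the DNA damage response, had 1.06 RPKM from 178 reads against 0.688 RPKM from 114 reads, 1.54-fold higher (1.21 to 1.97), with a mean just below the floor. Over the 5 members of this list past the floor, which also holds TRIM14 and TRIM66, the median was -0.17, with 2 above 0, 3 below and 0 past 2-fold.

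Of the members with NHL repeats, a propeller-shaped domain that can bind RNA, TRIM2 and TRIM32 were higher and TRIM3 lower. TRIM2, a ligase for neurofilament light chain, had 2.29 RPKM from 354 reads in deficient cells against 1.63 RPKM from 249 reads in sgVector cells, 1.41-fold higher (1.19 to 1.66). TRIM32, mutated in a limb-girdle muscular dystrophy, had 5.02 RPKM from 311 reads against 3.85 RPKM from 236 reads, 1.30-fold higher (1.10 to 1.55). TRIM71, which acts in stem cells and early development, had 0 reads against 1. A read count of 0 allows up to 3 reads, or 0.183 reads per 1000000 in the deficient library.

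Members with other C-terminal domains differed among themselves. TRIM37, a peroxisomal and centrosomal ligase with a MATH domain, was among the abundant members, with 16.8 RPKM in deficient cells against 16.05 RPKM in sgVector cells and an interval of 0.975-fold to 1.13-fold. TRIM23, which carries a GTPase domain of the ARF type, had 4.44 RPKM from 350 reads against 3.56 RPKM from 277 reads, 1.25-fold higher (1.06 to 1.47). TRIM45, with a filamin-type domain, had the lowest log2 ratio of the 37, at -0.77. It had 0.769 RPKM from 55 reads against 1.38 RPKM from 98 reads, 1.80-fold lower (1.28 to 2.55), so it is also one of the least precisely measured. TRIM13, anchored in the endoplasmic reticulum membrane, had 2.77 RPKM from 366 reads against 1.98 RPKM from 259 reads, 1.40-fold higher (1.19 to 1.65). Other genes overlap 17.7% of its exon bases.

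The MHC region on 6p carries a second cluster of TRIM genes, and its expressed members split. TRIM26 was higher, as given above, and TRIM38, which lies further out on 6p, had an interval that spanned no change. TRIM27, a ligase of retromer-dependent transport, had 9.75 RPKM from 1275 reads in deficient cells against 12.5 RPKM from 1623 reads in sgVector cells, 1.29-fold lower (1.195 to 1.39). TRIM39, a ligase in cell cycle control, had 1.76 RPKM from 122 reads against 2.70 RPKM from 185 reads, 1.53-fold lower (1.21 to 1.94). TRIM39 shares exons with the readthrough gene TRIM39-RPP21, which is listed at 0 reads in both libraries, and 41.7% of its exon bases overlap other genes, so its level is uncertain. TRIM10, TRIM15, TRIM31 and TRIM40 had between 0 and 2 reads in either library. The list of 8 had 4 members past the floor, with a median of -0.14 and 0 past 2-fold.

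On distal 5q TRIM52, TRIM41 and TRIM7 lie close together and differed from each other. TRIM52, a ligase with an enlarged RING domain, had 2.94 RPKM from 316 reads in deficient cells against 1.83 RPKM from 195 reads in sgVector cells, 1.603-fold higher (1.34 to 1.93). Of its exon bases 28.5% overlap a gene on the opposite strand. TRIM41 had 4.46 RPKM from 935 reads against 5.20 RPKM from 1078 reads, 1.17-fold lower (1.07 to 1.27). TRIM7, which binds the glycogen primer glycogenin, had 1.66 RPKM against 1.51 RPKM, with an interval of 0.899-fold to 1.36-fold. On 17q TRIM47 and TRIM65 are neighbours. TRIM47, second in level within the family, had 17.5 RPKM from 900 reads in deficient cells against 24.8 RPKM from 1263 reads in sgVector cells, 1.42-fold lower (1.30 to 1.55). Its log2 ratio of -0.50 was -0.20 after the GC and length correction. Of its exon bases 51.5% overlap a gene on the opposite strand, and the sources used here do not say whether counting used strand.

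Of the other expressed members, TRIM8, a positive regulator of cytokine signalling, had 13.7 RPKM from 2142 reads in deficient cells against 15.97 RPKM from 2470 reads in sgVector cells, 1.17-fold lower (1.10 to 1.24). Its log2 ratio of -0.22 was -0.09 after the GC and length correction. TRIM4, TRIM11, TRIM35, TRIM58 and TRIM62 had intervals that spanned no change, with log2 ratios between -0.17 for TRIM35 and 0.17 for TRIM58. TRIM58, known from red cell maturation, was nevertheless well expressed, at 10.9 RPKM against 9.68 RPKM.

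**Figure D4:**
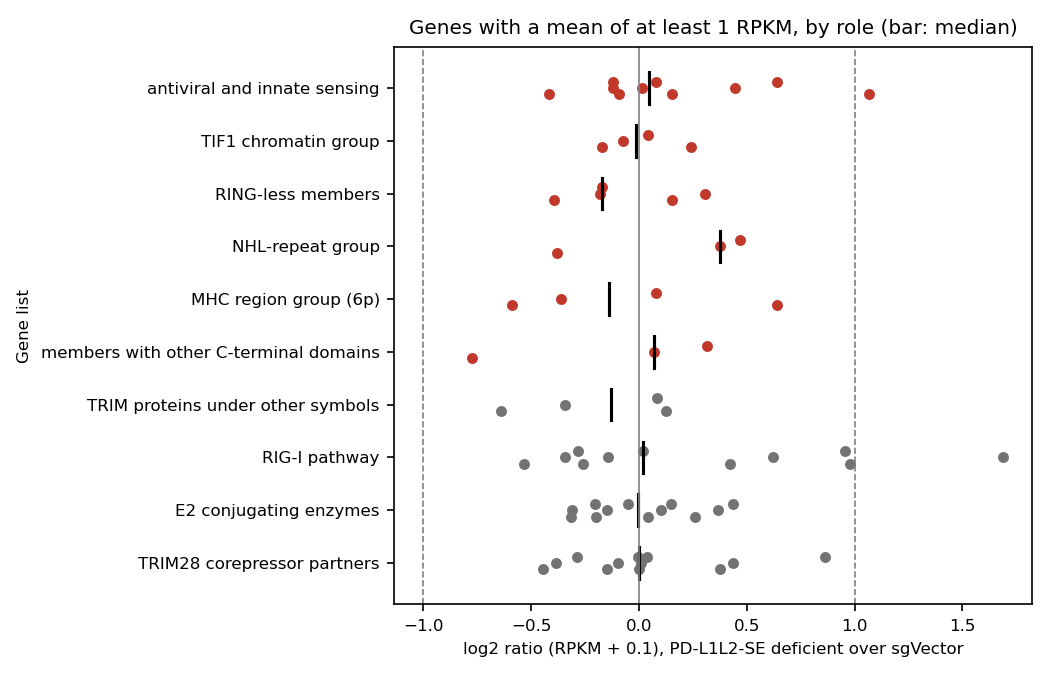
Log2 ratios (RPKM + 0.1), deficient over sgVector, of the genes past the floor in the 10 lists shown, with red points for lists of TRIM genes, grey points for other lists and bars for medians. TRIM22 at 1.07 and ZC3HAV1 at 1.69 are the points past the dashed 2-fold lines, and the medians of these lists lie between -0.17 and 0.37.

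A gene's neighbours on the chromosome gave a second scale for these ratios. For each member the median log2 ratio was taken over protein-coding genes past the floor that start within 5 Mb, with TRIM genes left out. TRIM13, at 0.46, stood with its 30 neighbours on chromosome 13, whose median was 0.47. TRIM52, at 0.65, stood above a neighbourhood with a median of 0.24, and TRIM41, at -0.22, below almost the same genes. TRIM22 and TRIM26, at 1.07 and 0.64, stood above neighbourhoods with medians of -0.10 and -0.13. TRIM45, at -0.77, stood below 36 neighbours with a median of 0.04. Over the 37 members the ratio and the neighbourhood median had a Pearson r of 0.35 and a Spearman rho of 0.44, a description only, since clustered members share neighbours.

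**Figure D5:**
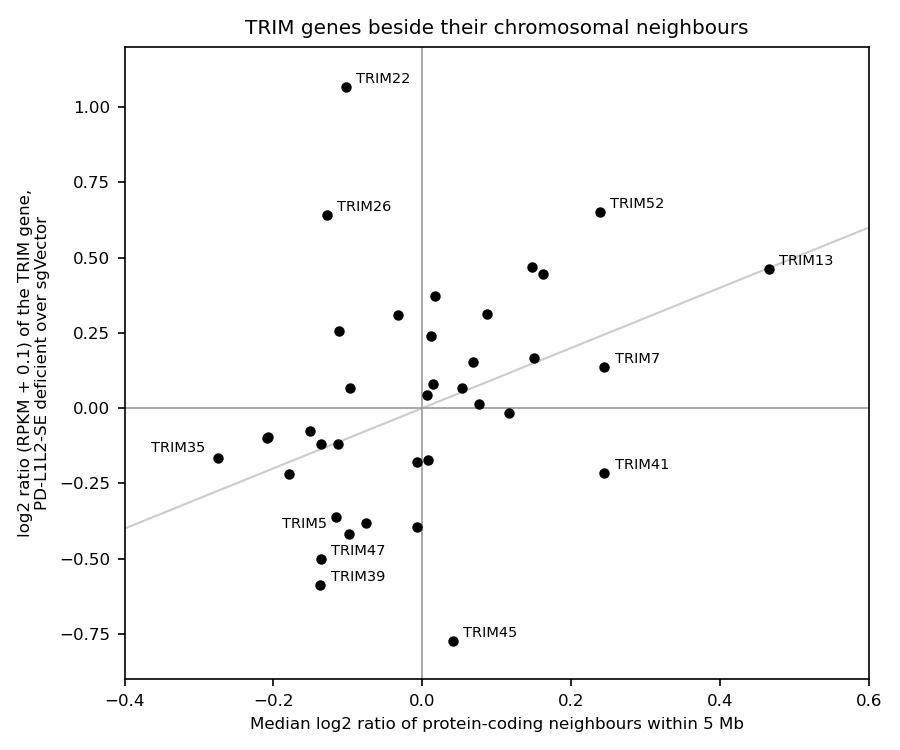
Log2 ratio (RPKM + 0.1) of each of the 37 TRIM genes, deficient over sgVector, against the median over protein-coding genes within 5 Mb, with a grey line where the 2 are equal. TRIM13 lies on the line, TRIM22 and TRIM26 far above it and TRIM45 far below.

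Base composition moved with the ratio as well. Across the 37 members Pearson's r between GC content and log2 ratio was -0.42 (Spearman's rho -0.42), in the same 2 libraries in which it was -0.26 (-0.32) over 10576 protein-coding genes. TRIM22, at 41.8% GC, is a GC-poor member and TRIM47, at 66.4%, a GC-rich one. After the correction for GC content and length 6 members moved beyond their counting intervals. TRIM33 stood at 0.04 with it, TRIM44 at 0.16 and TRIM28 at 0.17. TRIM8 stood at -0.09, TRIM47 at -0.20 and TRIM65 at 0.07. TRIM26, at 0.80, and TRIM5, at -0.46, lay further from 0 than without it.

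The 41 members below the floor include 20 with 0 reads in both libraries and 15 with between 1 and 18 reads over both. Of the 23 members on chromosome 11, 13 had 0 reads, among them the TRIM49, TRIM51 and TRIM64 genes and TRIM48, families of near copies. Their sequence overlap is large, with 90.9% of the 31-base words of TRIM49 and 91.1% of those of TRIM64B present in transcripts of other genes. TRIM63, TRIM54 and TRIM55, the muscle RING finger genes, had 2, 5 and 1 reads in deficient cells against 0, 19 and 0 in sgVector cells. TRIM54 was 3.84-fold lower, with an interval of 1.39 to 13.2. The microtubule-binding members with a COS box, which include these, TRIM9, TRIM36, TRIM46 and TRIM67, had 0 of 7 past the floor and 82 reads against 144 in all. TRIM36 made up most of these, with 50 reads in deficient cells against 93 in sgVector cells, 1.88-fold lower (1.32 to 2.71). TRIM46 had 21 reads against 32. The list of 7 holds only genes with a TRIM symbol, and MID1, a microtubule-bound ligase under another name, passed the floor. TRIM59, a membrane-bound member linked to proliferation, had 33 reads against 56, 1.72-fold lower (1.10 to 2.72), and 34.3% of its exon bases overlap other genes.

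Of 6 TRIM proteins that go by other names, 4 passed the floor, with none past 2-fold. PML, which builds nuclear bodies and is induced by interferon, had 20.97 RPKM from 4347 reads in deficient cells against 19.2 RPKM from 3940 reads in sgVector cells, 1.09-fold higher (1.05 to 1.14). MID1, a microtubule-bound ligase, had 2.88 RPKM against 3.67 RPKM, a log2 ratio of -0.34. RNF207 stood at -0.64 and MEFV, which encodes pyrin, at 0.09. The 12 listed E2 enzymes, with which TRIM ligases can work, were all past the floor, with 6 above 0, 6 below, 0 past 2-fold and a median of -0.0047. UBE2V2, UBE2K and UBE2D3 were the highest, at 0.44, 0.37 and 0.26, and UBE2E1, UBE2V1 and UBE2E3 the lowest, at -0.32, -0.31 and -0.20.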

How the data were processed

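The authors deposited RPKM values in 1 table with 1 column per library, with exon coordinates and gene lengths per the file headers. Per the submitters' processing notes, Subread featureCounts 1.6.4 and the builds GRCh37 and hg19 were used. Aligner, annotation release and strand setting: not given in the sources used here. Multiplying by gene length showed that 100% of values were whole reads within 1e-06, and reads, intervals and floors come from these. Of 60880 rows, 56858 (93.4%) matched GENCODE release 29, used for gene types, GC content and sequence shared between genes, without its coordinates, with symbols from a gene name table. Calls used a mean of at least 1 RPKM and a 2-fold difference on the log2 scale with a pseudocount of 0.1, which understates changes of low genes. Folds are ratios of read shares without it. For low genes their log2 can differ clearly from the log2 ratio, as for TRIM6, 3.03-fold higher at a log2 ratio of 1.29. Members and lists were chosen with earlier results of these data known. Named were all members past the floor, the 11p15.4 group, members below it with at least 50 reads or with the extreme ratios among those with at least 20, and up to 3 highest and 3 lowest genes of other lists. The remaining members and the olfactory, globin and opposite-strand genes were named to complete counts or overlaps. Alternatives were other scalings, pseudocounts, floors and thresholds, a GC and length correction, and removal of mitochondrial or readthrough genes. One of the marker genes looked at is not reported here. The steps were tested on simulated data. Tools were scipy 1.17.1 (intervals), statsmodels 0.14.6 (lowess), pandas 2.3.3, matplotlib 3.10.9 and numpy 2.4.6 under Python 3.11.15.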

Additional observations from a re-analysis of the deposited data

How the results depend on the processing

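No paired analysis was possible because each group had 1 library and the labels give no replicate numbers. Against 1 member at least 2-fold higher and 0 lower, the higher count was 0 with a pseudocount of 1 RPKM, 0 after the lowess correction for GC content and length, 0 with a floor of 5 RPKM and 0 with the whole interval past 2-fold. With a lower floor, 0.5 RPKM, it was 2, without any floor 2 (3 lower) and 3 at a 1.5-fold threshold (2 lower). The floors and thresholds change which genes enter or pass by construction; for the correction the cause was not tested. The median log2 ratio of the family was -0.10 with a floor of 5 RPKM and between -0.0085 and 0.09 under the other settings. The RIG-I pathway median was 0.18 and that of the TRIM28 partners -0.10 after the correction. TPM, TMM and upper-quartile scaling, a pseudocount of 0.01, removal of mitochondrial genes and removal of readthrough genes left both 2-fold counts as they were. Of 287 values of 41 members under alternatives, 11 lay outside the counting interval and 11, of 7 members, had the other sign (TRIM11, TRIM21, TRIM24, TRIM25, TRIM28, TRIM38 and TRIM65). Depth limits TRIM6, TRIM34, TRIM36, TRIM45, TRIM46, TRIM54, TRIM59 and TRIM62, with fewer than 100 reads in each library.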

Other observations

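TRIM52-AS1, a noncoding gene next to TRIM52, had 20.8 RPKM from 449 reads in deficient cells and 20.4 RPKM from 435 reads in sgVector cells, a log2 ratio of 0.03, whereas TRIM52 itself stood at 0.65. TRIM7-AS2 had 7 reads against 21 and was 3.03-fold lower (95% counting interval 1.24 to 8.44) in the deficient library.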
